A study of Mus musculus with 6 samples.

Results

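The genes described here encode the enzymes that take superoxide and peroxides apart in the cell: the superoxide dismutases Sod1 and Sod2, the glutathione peroxidases Gpx1 and Gpx4, and the peroxiredoxins Prdx1 to Prdx6. They were chosen by gene symbol, as 10 named rows of a table of 20107 genes, and all 10 passed the filter on low counts that left 14896 genes for testing. RNA came from livers of 6 wild-type male C57BL/6N mice (Envigo) aged 16 weeks, littermates kept as separate animals. HFHC mice (libraries 1, 2 and 3) were given a fructose-containing high-fat, high-calorie food with a high-fructose drink for 8 weeks from the age of 8 weeks, and Chow mice (libraries 7, 8 and 9) stayed on chow. The comparison of HFHC with Chow asks how the diet changes expression in whole liver, where fewer cells of a type and less RNA per cell cannot be told apart.

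Superoxide leaks from the mitochondrial respiratory chain and from many oxidases, and dismutases turn it into hydrogen peroxide. Glutathione peroxidases and peroxiredoxins then reduce hydrogen peroxide and organic peroxides, drawing electrons from glutathione or thioredoxin and, behind both, from NADPH. Hepatocytes make large amounts of peroxide when they oxidise fatty acids, and several of these enzymes are abundant liver proteins.

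Of the 10 genes, only Gpx4 passed the test, and it was higher in HFHC livers. At an adjusted p under 0.05 in edgeR's quasi-likelihood test, 6.67% of all tested genes were called, 503 genes (3.38%) higher and 491 (3.3%) lower, so 1 call among 10 genes is close to the background. Gpx4 and Prdx6 had an unadjusted p under 0.05, as did 22.2% of all tested genes. The other 9 did not pass, and their 95% intervals (not adjusted over genes) together ran from 0.697-fold for Prdx4 to 1.34-fold for Prdx6. The median log2 fold change was 0.02 over the 10 genes and -0.0033 over all tested genes. In size regardless of sign the median was 0.12 for the 10 genes, against 0.16 over all tested genes and 0.13 over the 3585 genes at least as abundant as Gpx4. Log2 fold changes are HFHC over Chow with a standard error (SE), and levels are CPM, read counts relative to the scaled size of the library, given per animal or as mean ± SD of the 3 animals on a diet.

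Gpx1 and Gpx4 are selenoproteins, in which a UGA codon inside the reading frame is read as selenocysteine, the residue that reacts with the peroxide. The stretch around that codon is shown for Gpx1, with the codon in capitals. It is codon 47 of the Gpx1 reading frame, at chr9:108339451-108339453 (mm10, plus strand), and GENCODE M21 annotates it as selenocysteine.
Gpx1: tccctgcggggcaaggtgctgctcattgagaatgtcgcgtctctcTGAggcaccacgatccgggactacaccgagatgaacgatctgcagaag

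The corresponding codon of Gpx4 lies at chr10:80054737-80054739 (plus strand). Gpx4 has a processed pseudogene, Gpx4-ps2, elsewhere on chromosome 10 (45875291 to 45876086), which GENCODE M21 annotates as transcribed. Gpx4-ps2 differs from the coding sequence of transcript Gpx4-202 at 2 of 538 aligned bases and no gap. The pair is shown because its near-identity bears on every Gpx4 value below. Coding bases 144 to 263 hold 1 of the differences, in capitals.
Gpx4: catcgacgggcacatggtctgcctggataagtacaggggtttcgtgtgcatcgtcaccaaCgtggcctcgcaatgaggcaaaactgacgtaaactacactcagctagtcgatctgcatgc
Gpx4-ps2: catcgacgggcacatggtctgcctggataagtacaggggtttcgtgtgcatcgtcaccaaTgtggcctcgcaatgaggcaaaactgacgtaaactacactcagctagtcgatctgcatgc

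Sod1 and Prdx1 also have close copies. Gm8566 on chromosome 6 differs from the Sod1 coding sequence (chromosome 16) at 10 of 462 bases. Gm21399 on chromosome 8 differs from the Prdx1 coding sequence (chromosome 4) at 10 of 597 bases, and coding bases 139 to 258 are shown with 3 differences in capitals.
Prdx1: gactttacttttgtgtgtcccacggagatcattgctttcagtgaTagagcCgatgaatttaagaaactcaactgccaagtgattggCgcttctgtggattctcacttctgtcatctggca
Gm21399: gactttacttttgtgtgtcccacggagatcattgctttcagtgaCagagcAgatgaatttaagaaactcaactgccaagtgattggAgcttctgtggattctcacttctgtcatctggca

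The libraries held 30096409 to 30871297 counts in HFHC and 26767416 to 27339613 in Chow, and single libraries held 851 to 45162 counts for these genes. Counting error alone would give Gpx4, the gene with the fewest counts, a coefficient of variation of 2.80% in HFHC and 3.39% in Chow, and less to the other 9. Chow replicate 8 stood apart from the other Chow libraries on the second principal component of all genes, which held 16.6% of the variance. Without it Gpx4 was again the one gene called among the 10 (log2 fold change 0.35, adjusted p = 0.0399). Of 10 hepatocyte markers, the urea cycle gene Cps1 fell (-0.75, adjusted p = 0.00837) and the others did not pass. Their summed level was 83330 to 86970 CPM in HFHC livers and 75066 to 94721 CPM in Chow livers.

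**Figure D1:**
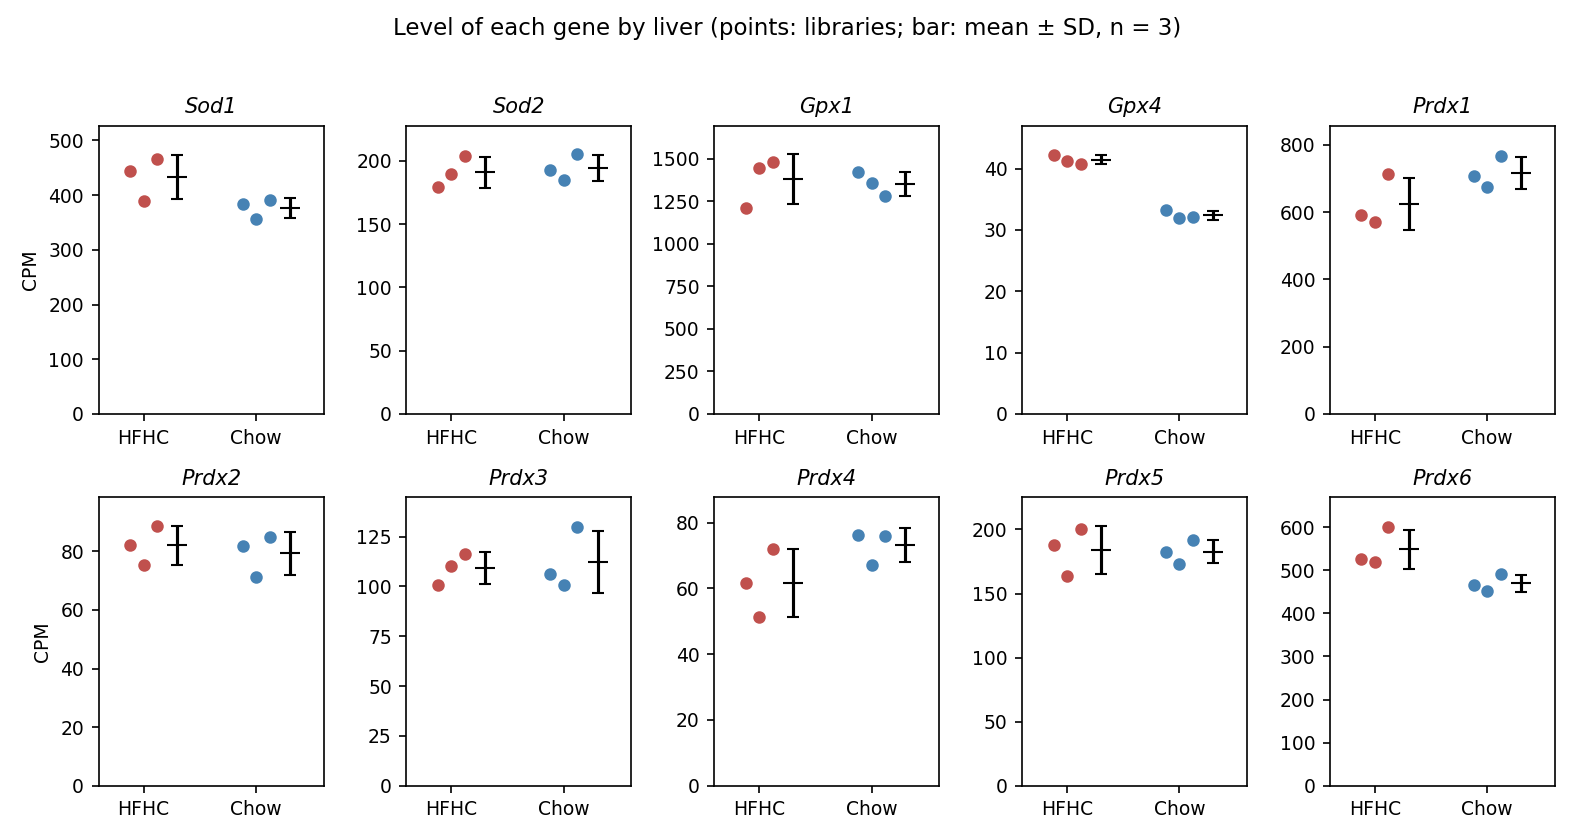
Level in CPM (vertical axes, linear from 0) of the 10 genes in each HFHC and Chow liver, with mean ± SD of 3 libraries beside the points. The diets do not overlap for Gpx4 (40.7 to 42.2 CPM in HFHC, 31.9 to 33.3 CPM in Chow) and Prdx6, and overlap for the other 8.

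Per kilobase of annotated exon, Gpx1 was the most abundant of the 10, at 956 ± 101 CPM per kb in HFHC and 939 ± 48.3 CPM per kb in Chow. It ranked 63rd of all tested genes on this scale, in the top 0.423%. Prdx1 came next (205 ± 25.3 CPM per kb in HFHC and 235 ± 15.7 in Chow), and its libraries were apart from those of its neighbours on either side. Prdx6, Sod1, Prdx5 and Prdx3 followed, in mean levels of 106, 102, 85.6 and 74.9 CPM per kb over the 6 libraries. Within that run, Prdx6 overlapped with Sod1 and Prdx5 with Prdx3 in both diets, so their order is not firm. Prdx4 (32.0), Prdx2 (26.5), Gpx4 (21.4) and Sod2 (19.3 CPM per kb) were lowest, and the order of these means over all 10 genes was the same by the length of the longest transcript. Among the lowest, Prdx4 overlapped with Prdx2 in HFHC and Gpx4 with Sod2 in Chow, where Gpx4 (18.8 CPM per kb) was below Sod2 (19.4). Counted together with its pseudogene, Gpx4 averaged 147 CPM per kb in HFHC and 119 in Chow. With Sod1, Prdx1 and Prdx2 summed with their copies as well, it was 4th among the 10. Each sum was taken over the exonic length of the gene itself. The place of Gpx4 thus differed with and without the pseudogene counts, and which of those reads came from Gpx4 was not tested.

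Gpx4 reduces peroxidised phospholipids within membranes and is the main brake on ferroptosis, a form of cell death driven by lipid peroxidation. It lies at chr10:80047166-80056439 (plus strand, mm10 as for all gene positions). Gpx4 had 42.2, 41.3 and 40.7 CPM in HFHC livers, against 33.3, 31.9 and 32.1 CPM in Chow livers. Every HFHC library was above every Chow library, which was so for 13.5% of all tested genes. Its coefficient of variation between animals, 1.77% in HFHC and 2.27% in Chow, was the smallest of the 10 genes in each diet and below what counting alone gives. Gpx4 rose 1.28-fold, with a log2 fold change of 0.35 ± 0.07 (SE, 95% interval 0.19 to 0.51) and an adjusted p of 0.0202 in edgeR's quasi-likelihood test. The call was lost without HFHC replicate 1 (adjusted p = 0.0679) or 2 (0.0580), without Chow replicate 7 (0.0755) or 9 (0.0851), and after removal of the GC and length trends of each library (log2 fold change 0.23, adjusted p = 0.0640). Over all alternatives the adjusted p ran from 0.00976 to 0.0851.

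The counts of Gpx4 were not whole in any library, and most reads of the pair were credited to the pseudogene. Gpx4-ps2 had 199, 217 and 220 CPM in HFHC livers, against 170, 164 and 183 CPM in Chow livers. The gene therefore held 15.6% to 17.5% of the pair's counts in HFHC and 14.9% to 16.4% in Chow. Gpx4-ps2, named after its values were seen, did not pass, at 0.30 ± 0.08 on the log2 scale (adjusted p = 0.0620). Counts summed over the pair averaged 253 ± 10.6 CPM in HFHC livers and 205 ± 9.76 CPM in Chow livers. The sum rose by 0.31 ± 0.08 on the log2 scale, with an adjusted p of 0.0490, just inside the threshold. Once any of the 6 libraries was omitted the sum no longer passed, with log2 fold changes of 0.28 to 0.35 and adjusted p of 0.0792 to 0.170.

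**Figure D2:**
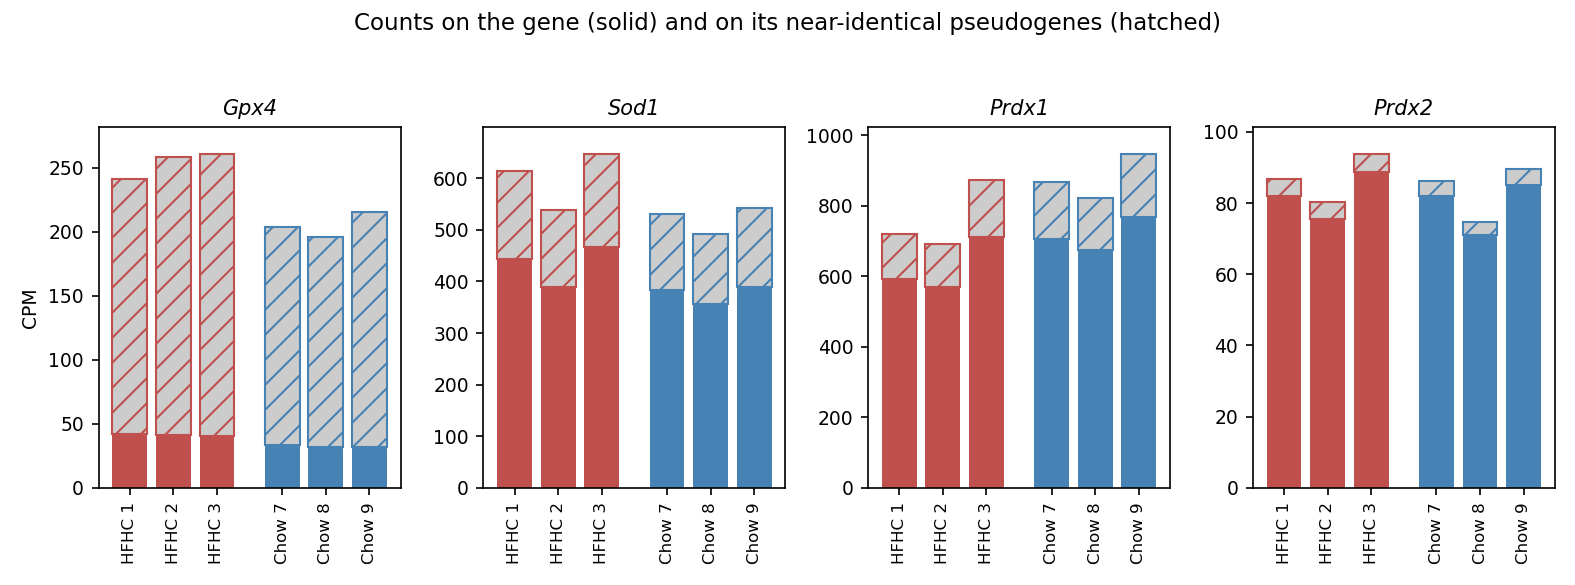
CPM (vertical axes, linear from 0) credited to Gpx4, Sod1, Prdx1 and Prdx2 (solid) and to their near-identical pseudogenes (hatched) in each HFHC (1 to 3) and Chow (7 to 9) library. The pseudogene holds most of the Gpx4 total in both diets and a small share of the Prdx2 total.

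Gpx1 (chr9:108338903-108340343, plus strand) is the main glutathione peroxidase of hepatocytes and acts on soluble peroxides in cytosol and mitochondria. It had 1210, 1446 and 1477 CPM in HFHC livers, against 1421, 1355 and 1282 CPM in Chow livers. The HFHC libraries covered the whole range of the Chow libraries. Its log2 fold change was 0.03 ± 0.10 (adjusted p = 0.909), and the interval ran from 0.872-fold to 1.19-fold. Within a library, the ratio of Gpx4 to Gpx1 counts needs no scaling between libraries. It was 0.0349, 0.0286 and 0.0276 in HFHC livers, against 0.0234, 0.0236 and 0.0250 in Chow livers. All HFHC ratios were above all Chow ratios (exact permutation test, two-sided p = 0.1, the smallest that 3 against 3 allows). The exact p was 0.1 after adjustment over 3 ratios as well. These 3 ratios were chosen after the values were seen, and how often other pairs of genes part the diets was not counted.

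Sod1 (chr16:90220754-90226329, plus strand), the copper and zinc dismutase of the cytosol, had 444, 388 and 466 CPM in HFHC livers, against 383, 356 and 390 CPM in Chow livers. HFHC replicate 2 lay just below the highest Chow library, so the diets overlapped. Its log2 fold change, 0.20 ± 0.09, did not pass (adjusted p = 0.235), with an interval from 0.997-fold to 1.33-fold. The Sod1 gene held 71.9% to 72.4% of the counts over itself and its copies Gm8566 and Gm8238. With these copies added the log2 fold change was also 0.20 (adjusted p = 0.245).

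Sod2 (chr17:13006846-13040063, plus strand), the manganese dismutase of the mitochondrial matrix, had 179, 190 and 204 CPM in HFHC livers, against 193, 185 and 206 CPM in Chow livers. The ranges were nearly the same. Its log2 fold change was -0.03 ± 0.08 (adjusted p = 0.891), with an interval from 0.863-fold to 1.12-fold, and its sign turned with upper-quartile factors or library size alone. The ratio of Sod1 to Sod2 counts was 2.48, 2.05 and 2.29 in HFHC livers, against 1.99, 1.92 and 1.90 in Chow livers. The ratios, also chosen after the values were seen, did not overlap between the diets, with the same smallest exact p of 0.1.

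Peroxiredoxins react through a cysteine that peroxide oxidises. Prdx1 to Prdx4 form one group that thioredoxin recharges, Prdx5 uses thioredoxin through a different cysteine arrangement, and Prdx6 works with glutathione. Prdx1 (chr4:116685544-116700822, plus strand) and Prdx2 (chr8:84969587-84974834, plus strand) encode mainly cytosolic enzymes. Prdx1 had 592, 569 and 713 CPM in HFHC livers, against 706, 674 and 768 CPM in Chow livers. HFHC replicate 3 lay within the Chow range and the other two HFHC libraries below it. Its log2 fold change, -0.20 ± 0.10, did not pass (adjusted p = 0.310). Its interval was 0.741-fold to 1.03-fold, and adding the copies Gm7204 and Gm21399 gave -0.21 (adjusted p = 0.298).

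Prdx2, which is also one of the main proteins of red blood cells, had 82.1, 75.5 and 88.6 CPM in HFHC livers, against 81.9, 71.1 and 84.9 CPM in Chow livers. The diets overlapped over most of their range. Its log2 fold change was 0.05 ± 0.10 (adjusted p = 0.813, interval 0.892-fold to 1.20-fold). Rnaseh2a and Junb, on the opposite strand, share 11.5% of its exonic bases, and whether the counting used strand is not stated in the labels. The ratio of Prdx1 to Prdx2 counts was 7.22, 7.54 and 8.04 in HFHC livers, against 8.62, 9.48 and 9.04 in Chow livers. This ratio, also chosen after the values were seen, was lower in each HFHC liver than in each Chow liver (exact permutation p = 0.1, the smallest possible).

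Prdx3 (chr19:60864051-60874556, minus strand), the peroxiredoxin of mitochondria, had 101, 110 and 116 CPM in HFHC livers, against 106, 101 and 130 CPM in Chow livers. The HFHC range fell inside the Chow range apart from one library just under it. Its counts were whole in every library, and its log2 fold change was -0.04 ± 0.11 (adjusted p = 0.865, interval 0.822-fold to 1.15-fold). Prdx5 (chr19:6906697-6910106, minus strand), found in mitochondria, peroxisomes and cytosol, had 188, 163 and 200 CPM in HFHC livers, against 183, 173 and 191 CPM in Chow livers. The HFHC libraries spread to both sides of the Chow libraries, with a log2 fold change of 0.01 ± 0.09 (adjusted p = 0.963, interval 0.871-fold to 1.16-fold). Trmt112 on the opposite strand shares 19.1% of the exonic bases of Prdx5.

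Prdx4 (chrX:155323918-155340754, minus strand), the peroxiredoxin of the endoplasmic reticulum, couples peroxide to disulfide formation in new secretory proteins. It had 61.5, 51.2 and 72.1 CPM in HFHC livers, against 76.3, 67.1 and 75.9 CPM in Chow livers. HFHC replicate 3 lay inside the Chow range and the other HFHC libraries below it. Prdx4 had the most negative log2 fold change of the 10, -0.25 ± 0.12, which did not pass (adjusted p = 0.269, interval 0.697-fold to 1.02-fold). Without HFHC replicate 3 it was -0.37 and without HFHC replicate 2 it was -0.13, neither of which passed (adjusted p = 0.0945 and 0.564). The spread among HFHC livers was the widest of the 10 genes, with a coefficient of variation of 17.0%, against 7.16% in Chow.

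Prdx6 (chr1:161240112-161251219, minus strand) reduces phospholipid peroxides, a substrate it shares with Gpx4, and also has phospholipase activity. It had 525, 520 and 601 CPM in HFHC livers, against 465, 452 and 491 CPM in Chow livers. All HFHC libraries were above all Chow libraries, as in 13.5% of tested genes. The log2 fold change of 0.22 ± 0.09 had an unadjusted p of 0.0296 in edgeR, did not pass after adjustment (adjusted p = 0.168), and had an interval from 1.02-fold to 1.34-fold. In no alternative did Prdx6 pass, with adjusted p from 0.0888 to 0.368. Gpx4 and Prdx6 were the 2 of 10 genes without overlap between the diets, against 27.8% of all tested genes in either direction.

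**Figure D3:**
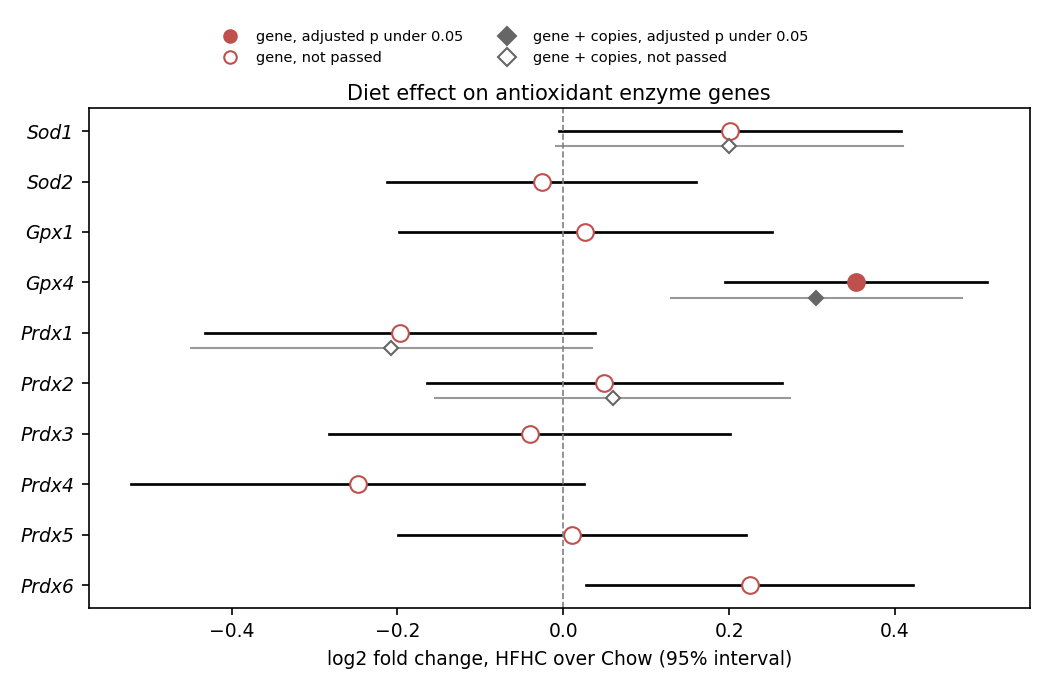
Log2 fold change, HFHC over Chow (horizontal axis), with its 95% interval for the 10 genes (circles) and, for the 4 with near-identical pseudogenes in the table, for the summed counts (diamonds). Filled marks passed at an adjusted p under 0.05, and Gpx4 is the one gene with filled marks, at 0.35 alone and 0.31 with its pseudogene.

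Within each diet most of the 10 genes were high or low in the same animals. HFHC replicate 3 was the highest HFHC library for 9 of the 10 and for 36.1% of all tested genes and 42.4% of those at least as abundant as Gpx4. The exception was Gpx4, for which HFHC replicate 3 was the lowest. Chow replicate 8 was the lowest Chow library for 9 of the 10, against 38.6% of all tested genes and 47.3% of the abundant ones, and the exception was Gpx1. Summed over the 10 genes, the level was 3426, 3555 and 3980 CPM in HFHC livers, against 3648, 3467 and 3651 CPM in Chow livers. The sums overlapped, and the Gpx, Prdx and Sod sums each overlapped as well.

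Among the other genes of the network, in 8 lists of redox genes, 5 of 108 tested genes rose and 4 fell, or 8.33% called, against 6.67% of all tested genes. None passed among 7 tested genes of a list of other peroxide and superoxide enzymes, which includes the chaperone gene Ccs. Catalase (Cat), the peroxisomal enzyme that splits hydrogen peroxide, averaged 2499 ± 41.6 CPM in HFHC livers and 2556 ± 68.8 CPM in Chow (log2 fold change -0.03 ± 0.08, adjusted p = 0.860). Ccs, the chaperone that loads copper into Sod1, averaged 136 ± 8.95 CPM in HFHC livers and 117 ± 2.63 CPM in Chow, with no overlap (0.21 ± 0.08, adjusted p = 0.149). The extracellular Sod3 (0.14 ± 0.09, adjusted p = 0.382) and Gpx3 (0.13 ± 0.18, adjusted p = 0.719) were far lower in level, at 19.4 ± 0.87 and 3.34 ± 0.41 CPM in HFHC livers and 17.6 ± 0.80 and 3.04 ± 0.50 CPM in Chow.

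None of the genes for the main proteins that recharge peroxiredoxins passed. The cytosolic thioredoxin Txn1 (-0.03 ± 0.10, adjusted p = 0.876) and its reductase Txnrd1 (-0.05 ± 0.09, adjusted p = 0.775) had log2 fold changes near 0. The mitochondrial pair was Txn2 (-0.03 ± 0.09, adjusted p = 0.864) and Txnrd2 (-0.13 ± 0.10, adjusted p = 0.4995). Srxn1, the sulfiredoxin that repairs overoxidised peroxiredoxins, averaged 47.6 ± 6.55 CPM in HFHC livers and 41.0 ± 3.29 CPM in Chow (0.22 ± 0.11, adjusted p = 0.292). Of 16 genes in the list, Glrx5 rose. It encodes a mitochondrial glutaredoxin of iron-sulfur cluster assembly and averaged 77.8 ± 5.46 CPM in HFHC livers and 55.0 ± 5.29 CPM in Chow (0.50 ± 0.09, adjusted p = 0.0166). Leaving out HFHC replicate 2 (0.0583) or Chow replicate 7 (0.0711) ended the call.

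No gene of glutathione synthesis and reduction passed among 10 tested. The smallest p belonged to Ggct (0.57 ± 0.16, adjusted p = 0.0614), which passed with DESeq2 (0.0294) and with library size alone (0.0468). Gsr, the reductase that regenerates glutathione for Gpx1 and Gpx4, averaged 61.1 ± 2.49 CPM in HFHC livers and 70.5 ± 3.48 CPM in Chow. The Gsr libraries did not overlap, but its log2 fold change, -0.21 ± 0.08, did not pass (adjusted p = 0.147).

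Genes for enzymes that supply NADPH were called in both directions, with 2 of 12 tested genes higher and 1 lower. Over all tested genes, 3.38% were higher and 3.3% lower. Enzyme amount and activity were not measured. Me1, the cytosolic malic enzyme, averaged 353 ± 54.6 CPM in HFHC livers and 121 ± 44.4 CPM in Chow (1.54 ± 0.24, adjusted p = 0.00774). Pgd of the pentose phosphate pathway rose by 0.79 ± 0.13 (adjusted p = 0.00830). Idh2, the NADPH-making isocitrate dehydrogenase of mitochondria, fell to 59.9 ± 5.86 CPM in HFHC, against 81.0 ± 8.70 CPM in Chow (-0.43 ± 0.10, adjusted p = 0.0394). The Idh2 call was lost without HFHC replicate 1 (0.106) or 3 (0.0971), without Chow replicate 7 (0.0923) or 9 (0.131), and with library size alone (0.0555). Nnt, the mitochondrial transhydrogenase, was at 118 ± 8.20 CPM in HFHC livers and 114 ± 6.29 CPM in Chow (0.06 ± 0.08, adjusted p = 0.742).

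Among 19 tested genes whose products make hydrogen peroxide or superoxide, the aldehyde oxidases Aox1 and Aox3 fell. Aox3 was at 500 ± 53.0 CPM in HFHC livers and 983 ± 185 CPM in Chow (-0.98 ± 0.14, adjusted p = 0.00533), and Aox1 had a log2 fold change of -0.66 ± 0.11 (adjusted p = 0.00815).

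Gpx1 and Gpx4 depend on the machinery that inserts selenocysteine, and of 20 tested genes for other selenoproteins and that machinery Dio1, which encodes a thyroid hormone deiodinase, rose and none fell. Dio1 averaged 185 ± 53.5 CPM in HFHC livers and 79.4 ± 30.9 CPM in Chow (1.22 ± 0.28, adjusted p = 0.0354). The Dio1 call was lost without HFHC replicate 2 (0.0951) or 3 (0.106), without Chow replicate 7 (0.120) or 9 (0.0784), and after the GC and length correction (0.0598). In a list of regulators and targets of NRF2, the transcription factor that drives many antioxidant genes, 1 of 14 fell and none rose. That gene was the epoxide hydrolase Ephx1 (-0.58 ± 0.13, adjusted p = 0.0297), whose call was lost without HFHC replicate 1 (0.0996) or 3 (0.0798) or Chow replicate 9 (0.0889). None of 10 genes of oxidative folding in the endoplasmic reticulum passed. The smallest p there was that of Pdia5 (-0.39 ± 0.12, adjusted p = 0.0859), which passed with DESeq2 (0.0454) and after the GC and length correction (0.0423).

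**Figure D4:**
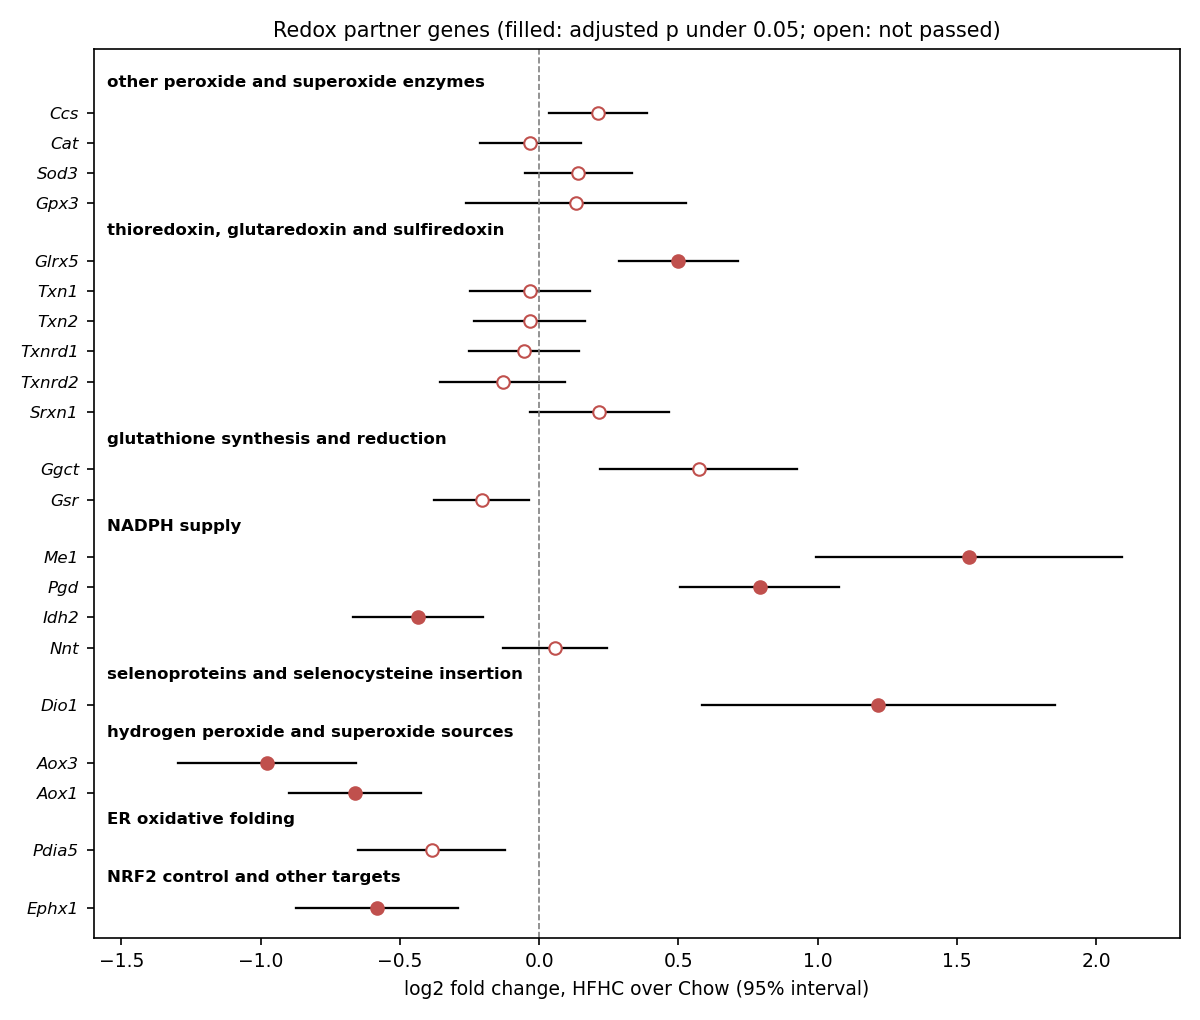
Log2 fold change, HFHC over Chow (horizontal axis), with its 95% interval for named genes that work beside the dismutases and peroxidases, grouped by list. Filled marks passed at an adjusted p under 0.05: Glrx5, Me1, Pgd and Dio1 were higher in HFHC, and Idh2, Aox1, Aox3 and Ephx1 lower.

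NRF2 binds the antioxidant response element, and its core letters TGACNNNGC were searched on both strands of the RefSeq promoter windows (GRCm38.p6, 250 bases before to 50 after each start). Windows were given for 9 of the 10 genes, all but Prdx6, 12 windows in all, and those of Prdx1 and Sod1 held a match. Of all 32851 windows, 12.4% held one, and 14.0% of their 27025 genes had a window with one. The Prdx1 and Sod1 stretches are shown with the match in capitals, as these genes carry the letters in a searched window. The match lies on the opposite strand and begins 133 bases before the RefSeq start of Prdx1 (stretch shown: chr4:116685406-116685534, plus strand). In Sod1 the match is also on the opposite strand, 56 bases before the RefSeq start (stretch shown: chr16:90220646-90220774, plus strand). These RefSeq starts differ from the GENCODE starts in the gene positions above.
Prdx1: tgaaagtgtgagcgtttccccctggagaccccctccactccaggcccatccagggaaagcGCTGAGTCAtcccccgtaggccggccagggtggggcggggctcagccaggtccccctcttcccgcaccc
Sod1: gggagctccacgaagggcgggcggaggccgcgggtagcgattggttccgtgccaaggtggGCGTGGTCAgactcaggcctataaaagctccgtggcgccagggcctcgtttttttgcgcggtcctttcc

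Neither gene with the letters passed, and their log2 fold changes had opposite signs (-0.20 for Prdx1 and 0.20 for Sod1). The 4 windows of Gpx4, the gene that passed, held no match. Whether NRF2 acts on any of these genes was not tested.

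The 3 genes of at least 5 CPM, among 9780, whose log2 CPM was most like that of Gpx4 over the 6 libraries were Arsg, Tmem86a and Isoc2a, with Pearson's r of 0.994, 0.994 and 0.992. These values are a description over 6 libraries that share their diets and scaling. Gpx4 did not overlap between the diets, so genes picked for likeness to it would be likely to differ by diet as well. Their fold changes are therefore no separate result. Arsg and Tmem86a had log2 fold changes of 0.84 (adjusted p = 0.000450) and 1.22 (adjusted p = 0.000397), and Isoc2a 0.30 (adjusted p = 0.0383). Isoc2a was not called in any of the 6 fits without a library (adjusted p = 0.0526 to 0.132).

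Markers of other cells were measured beside these genes. Of 5 tested erythroid markers Hba-a1 rose (0.37 ± 0.08, adjusted p = 0.0278), and the summed erythroid level was 273 to 321 CPM in HFHC livers and 255 to 279 CPM in Chow (exact permutation p = 0.2). The red cell membrane gene Slc4a1 was at or near 0, at no more than 0.160 CPM in any library. Kupffer cell and macrophage markers summed to 342 to 415 CPM in HFHC livers and 290 to 339 CPM in Chow, without overlap (exact permutation p = 0.1, the smallest possible), and none of their 11 tested members passed. This sum moved in the same direction as Gpx4 and Prdx6, and its part in their values was not tested. No member passed among neutrophil (2 tested), sinusoidal endothelial (8), stellate (8), cholangiocyte (5) or lymphocyte markers (5), and their sums overlapped between the diets.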

How the data were processed

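The authors deposited 1 table of estimated counts (expected counts) for every gene and library, without normalization, in which 22.4% of values were not whole (tolerance 0.01). Per the submitters' processing notes, STAR 2.7.3a, Partek 9 and mm10 were used. The labels describe stranded, ribosome-depleted total RNA libraries read as 75-base pairs. How strand and multiply mapped reads were handled, and with which annotation, is not given in the sources used here.

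Counts were rounded and filtered with filterByExpr (minimum count 10), leaving 14896 genes. HFHC was compared with Chow by edgeR 4.0.16 (TMM factors, quasi-likelihood F test, Benjamini-Hochberg over all tested genes, threshold 0.05), with no covariate. SE is the log2 fold change divided by the square root of F, and 95% intervals use its degrees of freedom. A p-value here reflects only how much these 6 animals varied. The edgeR test also draws the spread of each gene toward a trend over all tested genes. Coordinates and exon lengths come from GENCODE M21. Copies were pseudogenes at least 90% identical to a member transcript over at least 50% of their own length (BLAST 2.17.0), of which 6 were in the table.

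The members and all gene lists were chosen with earlier results of these data known. Named partner genes were up to 4 called genes per list by smallest p, or the smallest p where none was called, plus 11 genes with a direct role. Of 202 list entries, 13 were absent from the table and 2 were found under a synonym. Alternatives were DESeq2 1.42.0, limma-voom (limma 3.58.1) with and without library weights, other size factors and filters, the 10 most abundant genes left out, each library left out, and a GC and length correction. Summing copies, and counting calls under that correction, were added after the values were seen. The analysis was tested on simulated data. R 4.3.3, Python 3.11.15 and pandas 2.3.3 were used. Some named genes and sequences are not reported here.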

Additional observations from a re-analysis of the deposited data

How the results depend on the processing

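Among 17 alternatives each, Sod1, Prdx1, Prdx4 and Prdx6 kept their direction and did not pass in any. Gpx4 kept its direction in all 17 and its call in 12. The number of the 10 genes called higher was 1, but 0 after the GC and length correction and 0 at an adjusted p under 0.01. It ranged from 0 to 1 over the fits without a library, and no member was called lower in any fit. Genes called higher in all numbered 503 (207 without Chow replicate 7 to 527 without Chow replicate 8, and 166 at an adjusted p under 0.01). Genes called lower numbered 491 (154 to 553 without the same libraries, 116 at the stricter threshold, and 790 with weighted limma-voom). DESeq2 called 1259 genes and weighted limma-voom 1494, against 994. The cause was not tested.

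Values near 0 changed sign without passing. After the GC and length correction the log2 fold changes were -0.0913 for Gpx1, -0.0291 for Prdx2, -0.10 for Prdx5 and 0.13 for Sod2. With weighted limma-voom they were -0.0237 for Gpx1 and -0.0195 for Prdx5. Sod2 was at 0.0044 with library size alone and 0.0028 with upper-quartile factors. Without a library the ranges were -0.0252 to 0.12 for Gpx1, -0.0164 to 0.11 for Prdx2, -0.10 to 0.0779 for Prdx3, -0.0547 to 0.0922 for Prdx5 and -0.0746 to 0.0234 for Sod2. For partners they were -0.12 to 0.0351 for Txn1, -0.0863 to 0.0299 for Txn2 and -0.11 to 0.0059 for Txnrd1. The largest shift of the median of all genes under another scaling was 0.0302, with library size alone.

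No paired analysis was possible because the diets share no replicate numbers. With 3 libraries per diet, the intervals of the members that did not pass reach up to 1.34 times the Chow level (Prdx6). At the other end they reach down to 0.697 times the Chow level (Prdx4).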
